A study of Mus musculus with 35 samples.

Results

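Expression of 7 genes of sterol metabolism was followed in myeloid-derived suppressor cells (MDSC) of mice with pancreatic tumors: the sterol synthesis enzymes Hmgcs1, Idi1, Sqle, Lss and Dhcr7, the sterol sensor Insig1 and the oxysterol enzyme Ch25h. Their rows were picked by symbol, and all 7 were found among the 53379 gene identifiers of the count table. All mice were female C57BL/6 mice whose pancreas had been implanted with T110299 cells, a single tumor line from a genetically engineered mouse with pancreatic cancer, in which Ptf1a-Cre acts in the pancreas. Treated mice received 50 µg poly(I:C), a double-stranded RNA, in a complex with the carrier jetPEI (poly(I:C)c) intravenously on days 18 and 20, and the mice called untreated are glucose controls by the treatment protocol in the labels. PMN-MDSC (CD11b+Ly6CloLy6G+) and M-MDSC (CD11b+Ly6ChiLy6G-) were sorted from spleens and tumors of both, and whole tumors of untreated mice were lysed without sorting (bulk tumor). Each of the 9 groups had 4 libraries, except for treated spleen PMN-MDSC and treated tumor M-MDSC with 3 each, which gave 34 libraries after 1 treated tumor M-MDSC library with 10 counts was left out. A library of one group and a library of another can come from the same mouse.

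Cells build cholesterol from acetyl-CoA through the mevalonate pathway, in which Hmgcs1 and Idi1 act early, Sqle and Lss convert squalene into the first sterol and Dhcr7 acts at the end. When sterols are scarce, the transcription factor SREBP-2 leaves the endoplasmic reticulum and switches these genes on together, and Insig1, itself a target of SREBP-2, holds the factor back when sterols are plentiful. Ch25h converts cholesterol into 25-hydroxycholesterol, which binds Insig proteins and is known in macrophages as an interferon-induced product that lowers sterol synthesis.

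MDSC libraries held 793070 to 4357105 counts (median 2459369) and bulk tumor libraries 3771590 to 8886115, and values are given as CPM, counts scaled to a common library total with TMM factors, which correct for differences in library composition. The libraries were made by PCR without molecular identifiers, so counts are not independent molecules and a limit from a count of 0 covers counting error only. The labels were checked against 8 markers of each cell type, summed per library. PMN-MDSC markers reached 13749 to 30816 CPM in untreated and 36373 to 40791 CPM in treated spleen PMN-MDSC, but only 1340 to 4129 CPM in untreated and 2995 to 12142 CPM in treated tumor PMN-MDSC. Ly6g, the sorting marker of PMN-MDSC, was at 0 to 8.98 CPM in the untreated tumor PMN-MDSC libraries. In the same tumor PMN-MDSC libraries macrophage markers summed to 10377 to 13332 CPM without and 8779 to 18047 CPM with treatment, against at most 1878 CPM in any spleen library. M-MDSC markers were at 2262 to 6450 CPM in M-MDSC and at 677 to 2777 CPM in PMN-MDSC, ranges that overlap. The treated tumor M-MDSC library 2 stood apart with 27007 CPM of macrophage markers, beside 5069 and 10625 CPM in the other two libraries. Of its M-MDSC markers, Ly6c2 was at 2.72 CPM and Vcan at 8.37 CPM, the lowest of a group that reached 584 and 683 CPM. Its Cx3cr1 was the highest of the group, at 457 CPM.

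Counts of the 7 genes over all 34 libraries were 4688 for Hmgcs1, 3607 for Insig1, 1553 for Sqle, 1379 for Idi1, 756 for Lss, 645 for Dhcr7 and 312 for Ch25h. A gene needed at least 25 counts on average over the libraries of a comparison to be tested, and 1 to 6 of the 7 members passed, depending on the comparison. Each test is given with this filter where the gene passed it and otherwise without the filter, with the share of all tested genes that was called in the same fit. A call is an adjusted p (Benjamini-Hochberg, over all genes tested) under 0.05 in edgeR's quasi-likelihood test. Where libraries of treated and untreated or other groups are said not to overlap, this is a description only. The share of all genes without overlap is not given.

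In GENCODE M21 on GRCm38, Hmgcs1 (ENSMUSG00000093930.2) lies at chr13:119690379-119708260, Idi1 (ENSMUSG00000058258.14) at chr13:8885501-8892451, Sqle (ENSMUSG00000022351.14) at chr15:59315077-59331192, Lss (ENSMUSG00000033105.12) at chr10:76531588-76557138, Dhcr7 (ENSMUSG00000058454.15) at chr7:143823145-143848410 and Insig1 (ENSMUSG00000045294.11) at chr5:28071363-28078662, all on the plus strand. Ch25h (ENSMUSG00000050370.4) lies on the minus strand at chr19:34473778-34475164, and the noncoding gene Gm26902 starts within it on the opposite strand. The authors counted by strand, and 0 annotated genes overlapped a member on the same strand.

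The stretches of DNA before the gene starts differ in the motifs they hold, so 1 with a sterol element and CCAAT, 1 with CCAAT alone and 1 with neither are printed from the RefSeq promoter table (GRCm38.p6). The 250 bases before each start were searched on both strands for TCACNCCAC, a form of the element that SREBP binds, for CCAAT, the NF-Y site, and for GAAANNGAA, a form of the interferon-stimulated response element. Of 27025 gene symbols in the table, 331 (1.22%) held the first in at least 1 window, 10133 (37.5%) the second and 2211 (8.18%) the third. Of the 32851 windows themselves, 1.05%, 33.8% and 7.13% held them. A window was found for 6 of the 7 genes. TCACNCCAC was found in Hmgcs1 alone, CCAAT in 5 of the 6 genes, with Dhcr7 counted through 1 of its 3 windows, and GAAANNGAA in 0 of the 6. Each stretch is written 5′ to 3′ on the strand of its gene and ends before its start, and capitals mark a motif, ATTGG being CCAAT read from the opposite strand.
Hmgcs1, chr13:119690101-119690350, plus strand: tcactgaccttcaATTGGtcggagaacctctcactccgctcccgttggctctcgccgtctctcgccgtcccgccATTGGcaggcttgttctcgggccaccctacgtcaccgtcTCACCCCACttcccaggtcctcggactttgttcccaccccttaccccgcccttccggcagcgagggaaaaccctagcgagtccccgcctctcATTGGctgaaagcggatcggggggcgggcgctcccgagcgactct
Insig1, chr5:28071162-28071362, plus strand: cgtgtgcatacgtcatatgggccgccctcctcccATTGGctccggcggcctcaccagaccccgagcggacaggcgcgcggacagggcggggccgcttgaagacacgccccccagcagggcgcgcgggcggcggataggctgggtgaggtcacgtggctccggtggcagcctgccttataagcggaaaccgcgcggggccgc
Ch25h, chr19:34475165-34475398, minus strand: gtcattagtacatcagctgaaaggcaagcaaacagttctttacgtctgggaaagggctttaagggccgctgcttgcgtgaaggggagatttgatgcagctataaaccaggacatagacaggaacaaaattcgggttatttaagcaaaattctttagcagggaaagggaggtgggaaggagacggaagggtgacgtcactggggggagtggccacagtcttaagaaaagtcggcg
Hmgcs1 held 4 motifs, namely 1 TCACNCCAC that begins 137 bases before the start and 3 CCAAT, Insig1 held 1 CCAAT, and the stretch of Ch25h held 0. A match of letters is a description and not a measured binding site.

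Levels were compared between genes only per length, as FPKM, fragments per kilobase of exon scaled like CPM, over the summed exon length. Insig1 and Hmgcs1 had the highest mean level of the 7 in all sorted groups except treated tumor PMN-MDSC, where Ch25h (7.56 FPKM) exceeded Hmgcs1 (5.88 FPKM). In untreated tumor M-MDSC the mean levels were 22.6 FPKM for Insig1, 10.8 FPKM for Hmgcs1, 5.49 FPKM for Idi1, 2.82 FPKM for Sqle, 1.08 FPKM for Dhcr7, 0.555 FPKM for Lss and 0.331 FPKM for Ch25h. In treated tumor M-MDSC, Ch25h at 7.48 FPKM stood next to Hmgcs1 at 8.31 FPKM and above Idi1 (2.67), Dhcr7 (1.46), Sqle (0.859) and Lss (0.556 FPKM). Hmgcs1 exceeded Insig1 by its mean in all 4 spleen groups, at 6.19 against 3.71 FPKM in untreated and 8.46 against 1.27 FPKM in treated PMN-MDSC, and at 9.72 against 8.49 FPKM in untreated and 7.20 against 6.68 FPKM in treated M-MDSC. Insig1 exceeded Hmgcs1 in all 4 tumor MDSC groups.

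**Figure D1:**
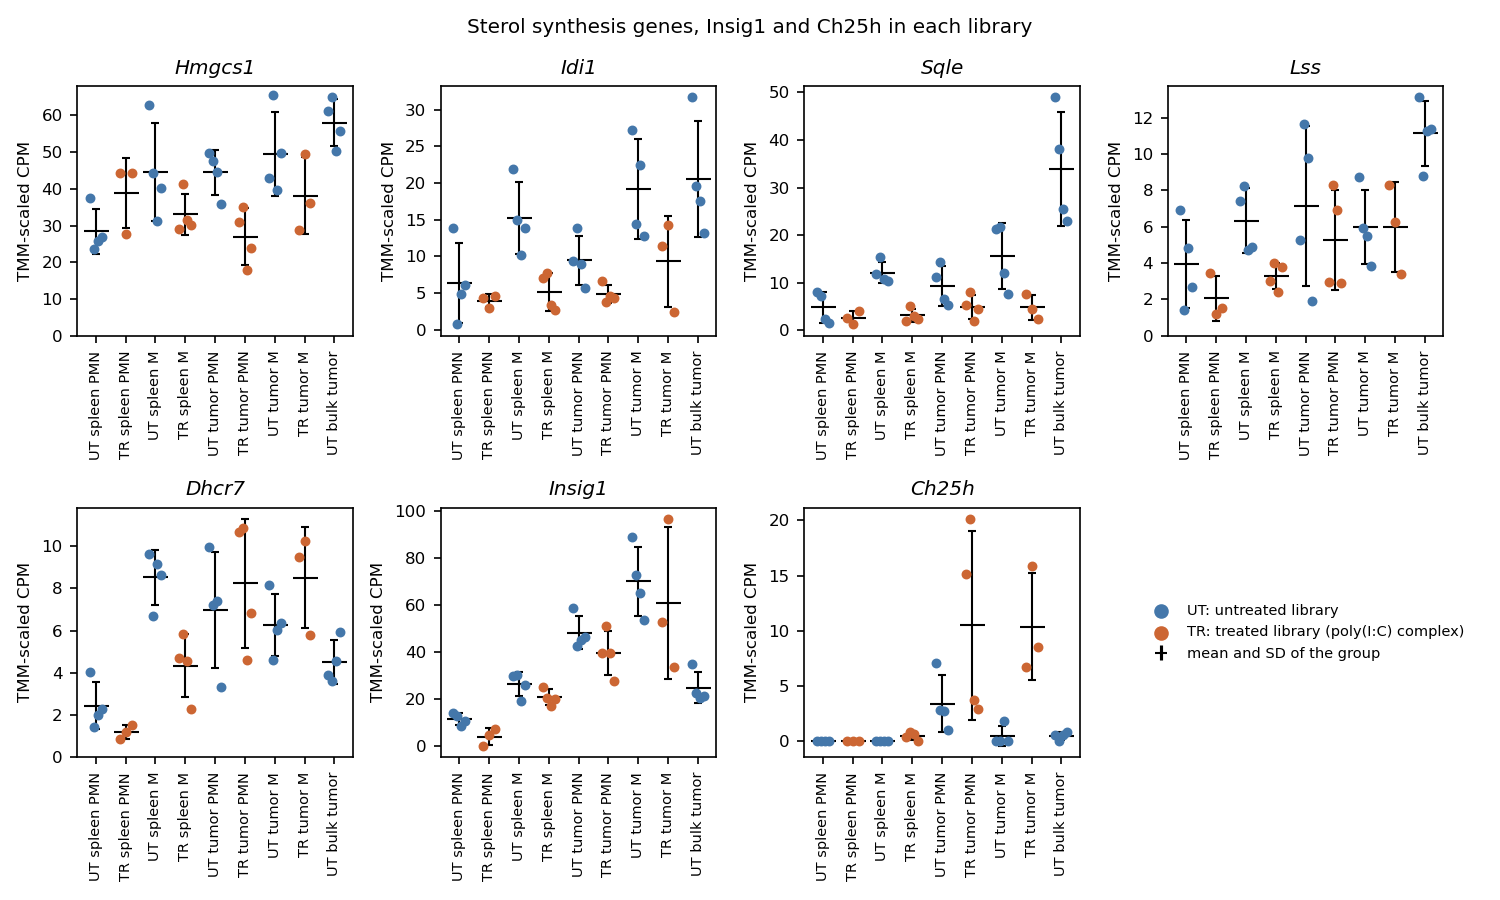
TMM-scaled CPM of the 7 genes (one panel each, own y axis) in every library of the 9 groups (x axis; UT untreated, TR treated, PMN PMN-MDSC, M M-MDSC), with points for libraries and bars for mean and SD. Ch25h lies at 0 in all 11 spleen libraries other than treated spleen M-MDSC and reaches 20.1 CPM in a treated tumor PMN-MDSC library, whereas Sqle in M-MDSC lies lower in the treated than in the untreated libraries.

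Poly(I:C)c treatment was followed by lower Sqle in M-MDSC of both compartments, by lower Idi1 in spleen M-MDSC and by higher Ch25h in tumor MDSC. In spleen M-MDSC Idi1 fell by 1.56 ± 0.37 (log2 fold change ± SE) and Sqle by 1.93 ± 0.35. In tumor M-MDSC Sqle fell by 1.76 ± 0.46 and Ch25h rose by 3.68 ± 0.69, and in tumor PMN-MDSC Ch25h rose by 1.74 ± 0.46. Of these changes, only that of Idi1 was testable with the filter. In spleen M-MDSC 3 members passed the filter and 1 was called lower (0 higher), where 19.4% of all genes tested were called, and without the filter 7 were tested and 2 called lower, where 7.7% were called. In tumor M-MDSC edgeR called 0 of the 3 members that passed, with 0 at an unadjusted p under 0.05 and 0 called by DESeq2 (2.88% of all genes called), and without the filter 1 of 7 was higher and 1 lower (4.1% called). In tumor PMN-MDSC edgeR called 0 of 2 with 1 at an unadjusted p under 0.05 and 0 called by DESeq2 (3.36% called), and without the filter 1 of 7 was higher (2.91% called). In spleen PMN-MDSC 1 member passed and edgeR called 0, with 0 at an unadjusted p under 0.05 and 0 called by DESeq2 (11.6% called), and without the filter 0 of 6 were called with 1 at an unadjusted p under 0.05 (6.58% called).

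**Figure D2:**
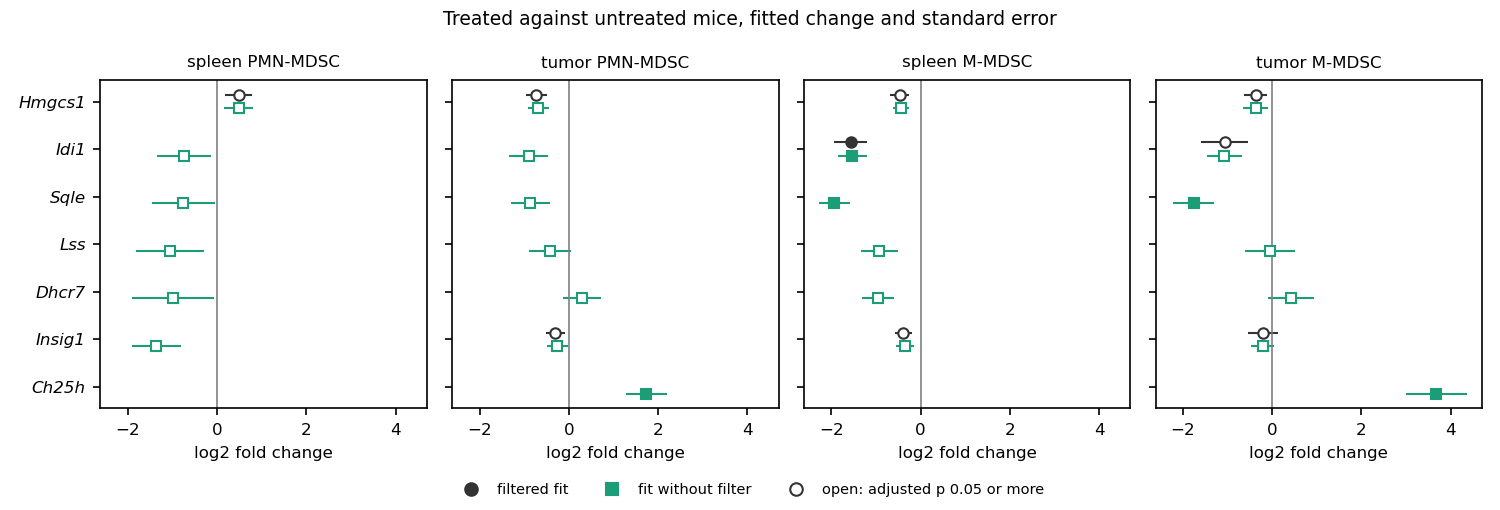
Fitted log2 fold change with its SE (x axis) of each gene (y axis) in treated against untreated mice, 1 panel per cell type and compartment, with circles for the fit with and squares for the fit without the filter on low counts; filled symbols have an adjusted p under 0.05. Sqle and Idi1 lie left of 0 in all 4 panels, and Ch25h is drawn only in the tumor, at 1.74 and 3.68.

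Hmgcs1, which makes HMG-CoA at the entrance of the pathway, varied least between the groups. Its mean level ran from 27.03 ± 7.64 CPM (SD, n = 4) in treated tumor PMN-MDSC and 28.4 ± 6.2 CPM in untreated spleen PMN-MDSC to 49.5 ± 11.6 CPM in untreated tumor M-MDSC and 58.1 ± 6.4 CPM in bulk tumor. In between lay treated spleen M-MDSC (33.1 ± 5.5 CPM), treated tumor M-MDSC (38.2 ± 10.5), treated spleen PMN-MDSC (38.9 ± 9.6), untreated tumor PMN-MDSC (44.5 ± 6.1) and untreated spleen M-MDSC (44.7 ± 13.4). In all 8 pairs of neighbours in this order the libraries overlapped. In tumor PMN-MDSC the untreated libraries were at 49.9, 47.6, 44.5 and 35.9 CPM and the treated ones at 31.1, 35.2, 17.9 and 23.9 CPM. The untreated libraries lay above the treated ones without overlap, but the change of −0.73 ± 0.23 did not pass (adjusted p = 0.13). By CPM of the library total, without TMM scaling, these groups overlapped. The changes in spleen PMN-MDSC (0.48 ± 0.30, adjusted p = 0.347), spleen M-MDSC (−0.47 ± 0.21, 0.159) and tumor M-MDSC (−0.37 ± 0.26, 0.495) did not pass either.

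Idi1, which isomerises the five-carbon building blocks of the pathway, was lower after treatment in spleen M-MDSC. The untreated libraries there were at 21.9, 14.9, 10.2 and 13.9 CPM and the treated ones at 7.05, 7.71, 3.33 and 2.65 CPM. Each untreated library was above each treated one. The log2 fold change was −1.56 ± 0.37 (adjusted p = 0.0154) and remained called when any 1 library was left out, with an adjusted p of 0.0129 to 0.0491. It failed the study's threshold of an adjusted p under 0.001. In tumor M-MDSC the untreated libraries were at 27.2, 14.4, 22.5 and 12.8 CPM and the treated ones at 11.5, 14.2 and 2.38 CPM. These groups overlapped in 1 library, and the change of −1.06 ± 0.53 did not pass (adjusted p = 0.308). In PMN-MDSC, Idi1 averaged 6.38 ± 5.48 CPM in untreated and 3.95 ± 0.86 CPM in treated spleen, and 9.49 ± 3.33 CPM in untreated and 4.89 ± 1.26 CPM in treated tumor. Neither change passed without the filter, in the tumor with −0.90 and an adjusted p of 0.432. Bulk tumor held 20.5 ± 7.9 CPM, and all 8 pairs of neighbouring groups overlapped.

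Sqle, which makes the epoxide of squalene and is a rate-limiting step of the pathway, fell in M-MDSC of both compartments. In spleen M-MDSC it was at 11.8, 15.3, 10.8 and 10.4 CPM without and at 2.01, 5.05, 3.03 and 2.27 CPM with treatment. The lowest untreated library was above the highest treated one. The libraries held 27 to 55 counts of Sqle without and 6 to 19 counts with treatment, so that the gene was under the filter. Without the filter the log2 fold change was −1.93 ± 0.35 (adjusted p = 3.05e-05), and it was called with any 1 library left out. In tumor M-MDSC Sqle was at 21.2, 21.7, 12.1 and 7.66 CPM without and at 7.51, 4.39 and 2.38 CPM with treatment. These groups again did not overlap, although 7.66 and 7.51 CPM were next to each other. By CPM of the library total, without TMM scaling, they overlapped. The change of −1.76 ± 0.46 passed without the filter (adjusted p = 0.00551). It rests on single libraries, since it no longer passed without untreated library 1 (−1.57, adjusted p = 0.094), untreated library 2 (−1.59, 0.075) or treated library 3 (−1.40, 0.158). Markers of cell identity moved with treatment in the same M-MDSC groups. In spleen M-MDSC 8 M-MDSC markers summed to 3486 to 5015 CPM without and 2262 to 3738 CPM with treatment, 8 macrophage markers to 704 to 927 and 343 to 658 CPM, and 5 erythroid markers to 23.6 to 47.6 and 0.606 to 2.69 CPM. Within the first 2 lists single markers went both ways. Of the M-MDSC markers Ly6c2 (2.74) and Fcgr1 (1.30) were called higher and Ccr2, Cx3cr1 and Klf4 lower, and of the macrophage markers C1qb, C1qc and Mertk (1.25 to 2.39) were called higher and Apoe and Mrc1 lower. Of 4 endothelial markers, Kdr alone separated the groups, at 0 to 5.08 CPM without and 73.4 to 248 CPM with treatment, and Tek was at 0 in all of these libraries. In tumor M-MDSC the M-MDSC markers summed to 5581 to 6450 CPM without and 2412 to 3777 CPM with treatment, 6 epithelial tumor cell markers to 101 to 323 and 69.4 to 97.2 CPM, and the endothelial markers to 20.4 to 41.3 and 70.0 to 143 CPM. Of these endothelial markers, Pecam1 (20.4 to 36.1 and 42.7 to 131 CPM) and Kdr (0 to 3.14 and 9.62 to 67.7 CPM) were higher with treatment. Cdh5 was not, with a mean of 1.86 CPM without and 1.64 CPM with treatment. Tek was near 0 in both groups, with means of 0 and 0.139 CPM. The epithelial marker Cdh1 was called lower in tumor M-MDSC (−2.75, adjusted p = 0.00485 in edgeR). Krt8 (−0.66, 0.691), Krt18 (−0.20, 0.890) and Krt19 (−0.92, 0.572) were not called in the same fit. The part of these shifts in the values of Sqle and Idi1 was not tested.

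In PMN-MDSC the treated and the untreated libraries overlapped in Sqle. The means were 4.80 ± 3.30 CPM in untreated and 2.61 ± 1.43 CPM in treated spleen PMN-MDSC, and 9.36 ± 4.19 CPM in untreated and 4.86 ± 2.54 CPM in treated tumor PMN-MDSC, and the changes of −0.76 (adjusted p = 0.633) and −0.86 (0.475) did not pass without the filter. Bulk tumor, at 33.9 ± 12.02 CPM, was the group with the highest mean and the one that did not overlap with the next, untreated tumor M-MDSC at 15.6 ± 6.9 CPM. The remaining 7 pairs of neighbours in the order of levels overlapped.

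Lss, which closes the ring system to lanosterol, was low throughout. Its group means ran from 2.06 ± 1.24 CPM in treated spleen PMN-MDSC through 3.30 ± 0.72 CPM in treated spleen M-MDSC, 3.97 ± 2.42 CPM in untreated spleen PMN-MDSC, 5.28 ± 2.75 CPM in treated tumor PMN-MDSC, 5.99 CPM in both tumor M-MDSC groups, 6.33 ± 1.78 CPM in untreated spleen M-MDSC and 7.15 ± 4.39 CPM in untreated tumor PMN-MDSC to 11.1 ± 1.8 CPM in bulk tumor. All 8 pairs of neighbours overlapped. In spleen M-MDSC the 4 untreated libraries (4.74 to 8.25 CPM) were above the 4 treated ones (2.42 to 3.99 CPM), but the change of −0.92 did not pass without the filter (adjusted p = 0.204).

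Dhcr7, which makes cholesterol from 7-dehydrocholesterol, showed the same arrangement in spleen M-MDSC. Untreated libraries lay at 9.62, 6.68, 9.15 and 8.66 CPM and treated ones at 4.70, 5.85, 4.55 and 2.27 CPM. The groups did not overlap, yet the change of −0.96 did not pass without the filter (adjusted p = 0.095). In tumor M-MDSC the mean was 6.29 ± 1.47 CPM without and 8.51 ± 2.39 CPM with treatment (log2 fold change 0.42), and in tumor PMN-MDSC 6.98 ± 2.73 and 8.25 ± 3.07 CPM (0.30). The libraries overlapped in both, and neither change passed. Dhcr7 was lowest in spleen PMN-MDSC, with 2.45 ± 1.12 CPM untreated and 1.19 ± 0.32 CPM treated, and bulk tumor held 4.51 ± 1.04 CPM. Untreated spleen M-MDSC had the highest mean (8.53 ± 1.29 CPM), and all 8 pairs of neighbours overlapped.

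Insig1, the brake on SREBP-2, was lower in spleen than in tumor libraries within each cell type and was not called for treatment in any of the 4 comparisons. In untreated spleen PMN-MDSC it was at 13.8, 12.9, 8.45 and 10.7 CPM, and in treated spleen PMN-MDSC at 0, 4.73 and 7.07 CPM. The treated libraries lay below the untreated ones, but the change of −1.36 ± 0.55 did not pass without the filter (adjusted p = 0.137). In spleen M-MDSC it was at 29.7, 30.2, 19.3 and 25.8 CPM without and 25.2, 20.5, 16.97 and 20.1 CPM with treatment. In tumor PMN-MDSC it was at 58.7, 42.6, 45.3 and 46.4 CPM without and 39.5, 51.2, 39.5 and 27.8 CPM with treatment. In tumor M-MDSC it was at 88.7, 72.8, 65.0 and 53.6 CPM without and 52.6, 96.6 and 33.7 CPM with treatment. Treated and untreated libraries overlapped in each of the latter 3, and the changes of −0.38 ± 0.19 (adjusted p = 0.194), −0.30 ± 0.21 (0.487) and −0.21 ± 0.34 (0.792) did not pass. The highest treated tumor M-MDSC value belongs to library 2, the one with the most macrophage markers, and without it the change was −0.72 and did not pass. The value in bulk tumor was 24.8 ± 6.7 CPM, and 6 of the 8 pairs of neighbouring groups overlapped.

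Ch25h, the enzyme that makes 25-hydroxycholesterol, had 0 counts in each of the 4 untreated and 3 treated spleen PMN-MDSC libraries and the 4 untreated spleen M-MDSC libraries. A limit of 3 counts over the group allows up to 0.301, 0.622 and 0.229 CPM there. Treated spleen M-MDSC held 1, 3, 2 and 0 counts (0.336, 0.797, 0.606 and 0 CPM). The mean was 1.90-fold the limit of untreated spleen M-MDSC, a ratio that leaves out the error of the mean. The fit without the filter did not call this difference (adjusted p = 0.188).

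In tumors Ch25h was detected in both cell types. Untreated tumor M-MDSC held 0, 0, 7 and 0 counts (0, 0, 1.83 and 0 CPM), and treated tumor M-MDSC held 17, 76 and 25 counts (6.72, 15.9 and 8.51 CPM). All treated libraries were above all untreated ones, and the log2 fold change without the filter was 3.68 ± 0.69 (adjusted p = 1.06e-05). It was called without any 1 library, with an adjusted p of at most 0.00385. The value of 3.27 to 3.95 in these fits was moved only by leaving out untreated library 3, which leaves an untreated group at 0 and a fitted value of 7.68 that is no bound.

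In tumor PMN-MDSC, Ch25h was at 7.04, 2.77, 2.73 and 0.957 CPM (12, 5, 7 and 2 counts) in untreated and at 15.2, 20.1, 3.68 and 2.93 CPM (61, 63, 8 and 6 counts) in treated libraries. The first 2 treated libraries were above all untreated ones and the other two within their range. The change of 1.74 ± 0.46 passed without the filter (adjusted p = 0.00891) but not without treated library 1 (1.53, adjusted p = 0.104), treated library 2 (1.23, 0.419) or untreated library 4 (1.47, 0.085). The 4 bulk tumors held 4, 0, 5 and 8 counts (0.520, 0, 0.521 and 0.820 CPM). In the order of the group means, 7 of 8 pairs of neighbours overlapped.

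**Figure D3:**
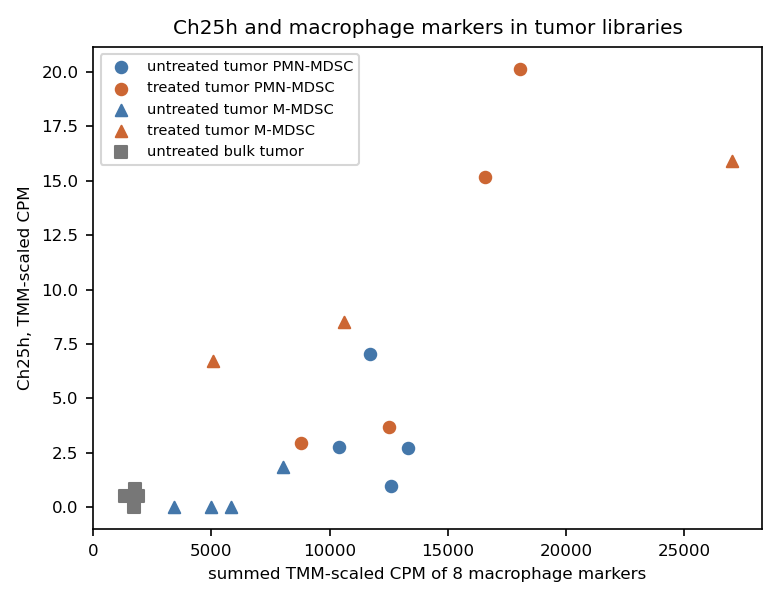
Ch25h (TMM-scaled CPM, y axis) against the summed CPM of 8 macrophage markers (x axis) in each tumor library, by cell type (symbol) and treatment (color). The treated libraries with 15.2, 15.9 and 20.1 CPM of Ch25h are the 3 with the highest marker sums, and the treated M-MDSC library with 6.72 CPM has a marker sum of 5069 CPM, within the range of the untreated M-MDSC libraries.

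Among the treated tumor libraries, those with the most Ch25h had the highest sums of macrophage markers. Apoe made up most of these sums. Its mean was 8413 of 12008 CPM in untreated tumor PMN-MDSC and 9578 of 14234 CPM in treated tumor M-MDSC. The 2 treated PMN-MDSC libraries with the highest Ch25h summed to 16555 and 18047 CPM of macrophage markers, and the other two treated libraries to 12508 and 8779 CPM. The untreated PMN-MDSC libraries, with at most 7.04 CPM of Ch25h, summed to 10377 to 13332 CPM. Among M-MDSC, the untreated libraries summed to 3428, 4985, 8041 and 5837 CPM, and the single one with Ch25h counts was that at 8041 CPM. Treated M-MDSC libraries summed to 5069, 27007 and 10625 CPM. All 8 macrophage markers were detected in each of these groups. Dendritic cell markers summed to 99.6 to 129 CPM in untreated and 146 to 581 CPM in treated tumor M-MDSC. Itgax made up most of that sum, at 92.0 and 305 CPM by mean, and Cd209a fell from 12.3 CPM to 0. In tumor PMN-MDSC the sum went the other way, with 334 to 381 CPM without and 111 to 324 CPM with treatment. The part of macrophages or dendritic cells in the Ch25h values was not tested. In treated tumor M-MDSC, Ch25h passed without library 2 (3.27, adjusted p = 0.00385).

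The other genes of the pathway were taken from a list of 19 enzymes, of which Hmgcs1, Idi1, Sqle, Lss and Dhcr7 are 5. For this and the following lists, the shares of all genes called were, as given above, 11.6% in spleen PMN-MDSC, 3.36% in tumor PMN-MDSC, 19.4% in spleen M-MDSC and 2.88% in tumor M-MDSC with the filter, and 6.58%, 2.91%, 7.7% and 4.1% without it. In spleen M-MDSC 10 of the 19 passed the filter, 8 of the 10 had a log2 fold change below 0, and 3 were called lower and 0 higher, with a median of −0.71 beside −0.03 over all genes tested. The 3 were Cyp51, which removes a methyl group of lanosterol (−1.66 ± 0.26, adjusted p = 0.00214), Sc5d, the sterol C5 desaturase (−1.04 ± 0.23, 0.0113), and Idi1. Without the filter all 19 were tested and 5 were called lower, with Sqle and the methylsterol oxidase Msmo1 (−0.71, adjusted p = 0.0192) in addition to these 3, and the median was −0.65 beside −0.01. Cyp51 was at 24.7 to 43.7 CPM in the 4 untreated and at 8.06 to 15.4 CPM in the 4 treated libraries, without overlap.

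In tumor M-MDSC, 10 of the 19 passed and all 10 were below 0, with a median of −0.69 beside −0.000366 over all genes tested. Of these edgeR called 0, with 3 at an unadjusted p under 0.05 and 1 (Cyp51, lower) called by DESeq2. Without the filter 3 of 19 were called lower and 0 higher, namely Cyp51 (−1.56, adjusted p = 1.89e-05), Sqle and Lbr (−0.84, 0.0278), a sterol reductase that also anchors the nuclear lamina, and the median was −0.40 beside 0.21. Cyp51 was at 43.2 to 93.2 CPM in untreated and 6.47 to 30.5 CPM in treated tumor M-MDSC. In spleen PMN-MDSC edgeR called 0 of the 8 genes that passed, with 3 at an unadjusted p under 0.05 and 1 (Lbr, higher) called by DESeq2, and the median was 0.44 beside 0.01. In tumor PMN-MDSC it called 0 of 8, with 2 at an unadjusted p under 0.05 and 1 (Cyp51, lower) called by DESeq2, and the median was −0.11 beside 0.01. Without the filter edgeR called 0 of 19 in spleen (3 at an unadjusted p under 0.05) and 1 of 19 in tumor, Cyp51, which was lower (−1.17, adjusted p = 0.00192). In tumor PMN-MDSC the epithelial tumor cell markers summed to 123 to 740 CPM without and 79.1 to 175 CPM with treatment. Of these, edgeR called Cdh1 lower (−2.61, adjusted p = 0.0108). Krt8 (−1.55, 0.214), Krt18 (−1.23, 0.225) and Krt19 (−1.62, 0.245) were not called. The part of such cells in the value of Cyp51 was not tested, here or in tumor M-MDSC. The enzymes of the list called lower in M-MDSC act on squalene or later, except Idi1, a grouping made after the values were seen and not tested. Much of the list acts there, and Lss, Tm7sf2, Nsdhl, Hsd17b7, Ebp and Dhcr7, which do so too, were not called in M-MDSC.

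**Figure D4:**
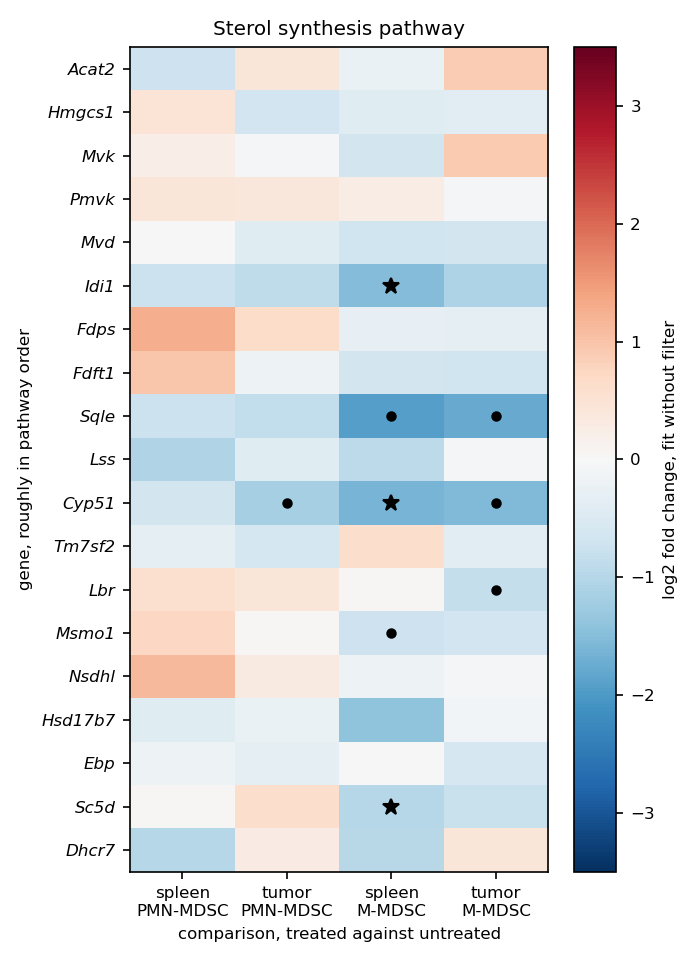
Log2 fold change of treated against untreated mice (color) for the 19 enzymes of sterol synthesis (rows, roughly in pathway order) in each cell type and compartment (columns), from the fit without the filter; stars are called with the filter, and dots only without it. Cyp51, Sqle and Idi1 are blue in all 4 columns, and Sqle in spleen M-MDSC is the darkest at −1.93.

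Of 12 genes of sterol sensing and uptake, 10 passed in spleen M-MDSC and 2 were called lower, the sterol carrier Stard4 (−1.66, adjusted p = 0.0027) and the receptor Gpr146 (−1.01, 0.0075), a share near that of all genes. Npc2, which hands cholesterol out of the lysosome, was the 1 of 7 called in spleen PMN-MDSC (1.17 ± 0.22, adjusted p = 0.0162). In tumor M-MDSC edgeR called 0 of 10, with 4 at an unadjusted p under 0.05 and 2 (Gpr146 and Npc2) called by DESeq2, and in tumor PMN-MDSC 0 of 9, with 2 at an unadjusted p under 0.05 and 0 called by DESeq2. Without the filter edgeR called Gpr146 lower in tumor M-MDSC (−1.18, adjusted p = 0.00438). It then also called Npc2 higher in tumor PMN-MDSC (0.70, 0.0305) and Srebf2 higher in spleen PMN-MDSC (0.82, 0.0385). Of 11 oxysterol enzymes and receptors, Nr1h3, the nuclear receptor LXRα that oxysterols activate, was called higher in tumor PMN-MDSC (2.34 ± 0.27, adjusted p = 0.00112), spleen M-MDSC (2.97 ± 0.21, 3.02e-05) and tumor M-MDSC (3.62 ± 0.39, 0.00428) but not in spleen PMN-MDSC (−1.04 ± 0.69, 0.374). Its level in spleen M-MDSC went from 15.7 to 25.8 CPM in untreated to 126 to 213 CPM in treated libraries. Cyp27a1, which hydroxylates cholesterol in mitochondria (−1.91 ± 0.31, adjusted p = 0.00277), and Soat1, which esterifies it (−0.59 ± 0.12, 0.00724), were the 2 called lower in spleen M-MDSC with the filter. Without the filter edgeR also called Cyp27a1 lower in spleen PMN-MDSC (−4.155, adjusted p = 2.19e-06). Gpr183, the receptor for a product of 25-hydroxycholesterol, is named after its values were seen and passed the filter in 3 comparisons without a call in edgeR, with −0.75 in spleen M-MDSC, −1.44 in tumor PMN-MDSC and −2.10 in tumor M-MDSC (adjusted p = 0.0718, 0.256 and 0.111). DESeq2 called it in tumor M-MDSC and in neither of the other two. Without the filter it was called lower in all 4 comparisons, with −2.99 in spleen PMN-MDSC (adjusted p = 0.0147), −1.40 in tumor PMN-MDSC (0.00922), −0.72 in spleen M-MDSC (0.0347) and −2.08 in tumor M-MDSC (2.44e-06).

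Fatty acid synthesis shares acetyl-CoA and the SREBP family with the sterol pathway. Of its 12 genes, Fasn, the fatty acid synthase, was the 1 of 7 called in spleen PMN-MDSC (−2.19, adjusted p = 0.0419). Markers of other cells were lower in the same treated libraries, in which 8 dendritic cell markers summed to 12.1 to 97.0 CPM, against 306 to 455 CPM without treatment, and 8 macrophage markers to 105 to 274 CPM, against 629 to 1878 CPM. In tumor PMN-MDSC the dendritic cell markers summed to 334 to 381 CPM without and 111 to 324 CPM with treatment. They were higher with treatment in tumor M-MDSC, at 99.6 to 129 CPM without and 146 to 581 CPM with it. In spleen M-MDSC they overlapped, at 40.1 to 138 and 101 to 151 CPM. The part of these cells in the values of Fasn, Gpr183 and Cyp27a1 was not tested. Acaca, which makes malonyl-CoA (−0.61, adjusted p = 0.0232), and Acly, which supplies acetyl-CoA (−0.47, 0.0439, and 0.091 without the filter), were 2 of 6 in spleen M-MDSC, and Acly was 1 of 6 in tumor M-MDSC (−1.35, 0.039), all lower with the filter. In tumor PMN-MDSC edgeR called 0 of 6, with 5 at an unadjusted p under 0.05 and 2 (Acly and Scd2, both lower) called by DESeq2. Without the filter 2 of 12 were called lower in spleen PMN-MDSC (Fasn and Scd2), 4 in tumor PMN-MDSC (Scd2, Fasn, Elovl6 and Acly), 2 in spleen M-MDSC (Acaca and Fasn) and 3 in tumor M-MDSC (Acly, Scd2 and Elovl6), where Fads1, a fatty acid desaturase, was called higher (1.43, adjusted p = 0.000997). Of 12 interferon-stimulated genes, given for comparison, edgeR called 10 in spleen PMN-MDSC, 10 in tumor PMN-MDSC, 12 in spleen M-MDSC and 6 in tumor M-MDSC, all higher. Without the filter the counts were 12, 10, 12 and 10, and DESeq2 called 11, 10, 12 and 10, all higher.

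Whether the treatment effects differed between compartments or cell types was tested with interaction terms. For tumor minus spleen in PMN-MDSC, edgeR called 0 of the 2 members that passed, with 1 at an unadjusted p under 0.05 and 1 called by DESeq2, where 3.5% of all genes were called. That gene was Hmgcs1 with −1.18 ± 0.37 (adjusted p = 0.0987 in edgeR and 0.0356 in DESeq2). For tumor minus spleen in M-MDSC it called 0 of 3, with 0 at an unadjusted p under 0.05 and 0 by DESeq2 (0.79% called). For M-MDSC minus PMN-MDSC it called 0 of 2 in spleen, with 1 at an unadjusted p under 0.05 and 0 by DESeq2 (10.9% called), and 0 of 3 in tumor, with 0 and 0 (0.0239% called). Without the filter all 7 members were tested and edgeR called 0 in each, with 2 at an unadjusted p under 0.05 for tumor minus spleen in PMN-MDSC (2% of all genes called), 1 in M-MDSC (2.21% called), 1 for M-MDSC minus PMN-MDSC in spleen (5.1% called) and 1 in tumor (0.494% called). The last of these was Ch25h, whose change in tumor was higher by 1.91 ± 0.82 in M-MDSC than in PMN-MDSC (edgeR, adjusted p = 0.576). For Sqle the difference between M-MDSC and PMN-MDSC was −1.15 ± 0.75 in spleen (adjusted p = 0.607) and −0.90 ± 0.63 in tumor (0.913), and that between tumor and spleen in M-MDSC was 0.18 ± 0.57 (0.9998). In the interactions that involve spleen, Ch25h rests on groups at 0 and no value is given.

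Insig1 was higher in tumor than in spleen in all 4 comparisons of compartments, and Ch25h was detected mainly in tumor. In PMN-MDSC Insig1 was higher by 2.23 ± 0.22 without (adjusted p = 2.78e-05) and by 3.33 ± 0.60 with treatment (0.00203), and in M-MDSC by 1.44 ± 0.19 without (0.00015) and 1.58 ± 0.34 with treatment (0.0364). The spleen and tumor libraries listed above did not overlap in any of the 4. Macrophage markers were also higher in tumor, with 8779 to 18047 CPM in tumor against 105 to 1878 CPM in spleen PMN-MDSC and 3428 to 27007 against 343 to 927 CPM in M-MDSC, and PMN-MDSC markers in PMN-MDSC were lower in tumor, with 1340 to 12142 against 13749 to 40791 CPM. Their part in the difference in Insig1 was not tested. The last call was lost when any 1 library other than treated tumor M-MDSC library 3 was left out, with an adjusted p of 0.0534 to 0.112 and a value of 1.06 without library 2 of the treated tumor M-MDSC, but without the filter the change was 1.56 (3.51e-08). The only other gene called with the filter was Hmgcs1 in untreated PMN-MDSC (0.79 ± 0.22, adjusted p = 0.00923).

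The members called in the 4 comparisons of compartments were all higher in tumor, 2 of 2 that passed in untreated PMN-MDSC (59.1% of all genes called), 1 of 4 in untreated M-MDSC (28.4%), 1 of 2 in treated PMN-MDSC (53.6%) and 1 of 2 in treated M-MDSC (5.97%). Without the filter they were 4 of 7 (21.8% called), 2 of 7 (15% called), 3 of 7 (24.1% called) and 2 of 7 (7.22% called). Such shares have to be read beside these backgrounds, most of all in PMN-MDSC. Dhcr7 was called only without the filter, with 1.46 ± 0.54 in untreated (adjusted p = 0.0349) and 2.79 ± 0.72 in treated PMN-MDSC (0.000853), and the former was lost without any 1 of 6 of the 8 libraries (1.28 to 1.44, adjusted p of 0.0593 to 0.131). Idi1, Sqle and Lss were not called in any of the 4, with or without the filter.

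For Ch25h, the spleen groups at 0 allow only ratios to their limit. These leave out the error of the tumor mean and are no strict lower bounds. By the mean CPM over libraries, tumor PMN-MDSC were at 11.2-fold the limit of spleen PMN-MDSC without treatment and at 16.8-fold with treatment. Untreated tumor M-MDSC were at 2.002-fold the limit of untreated spleen M-MDSC. With the counts of a group pooled, which gives deeper libraries more weight, the ratios were 10.6-fold, 19.5-fold and 3.84-fold. The last one rests on the 7 counts of 1 library, and its call without the filter (adjusted p = 0.0426) was lost when any 1 spleen library was left out (0.0831 to 0.147). Treated tumor M-MDSC exceeded treated spleen M-MDSC by 4.38 ± 0.62 without the filter (adjusted p = 2.18e-10). Macrophage markers differed in the same direction between the compartments, as given above, with 343 to 658 CPM in treated spleen M-MDSC.

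**Figure D5:**
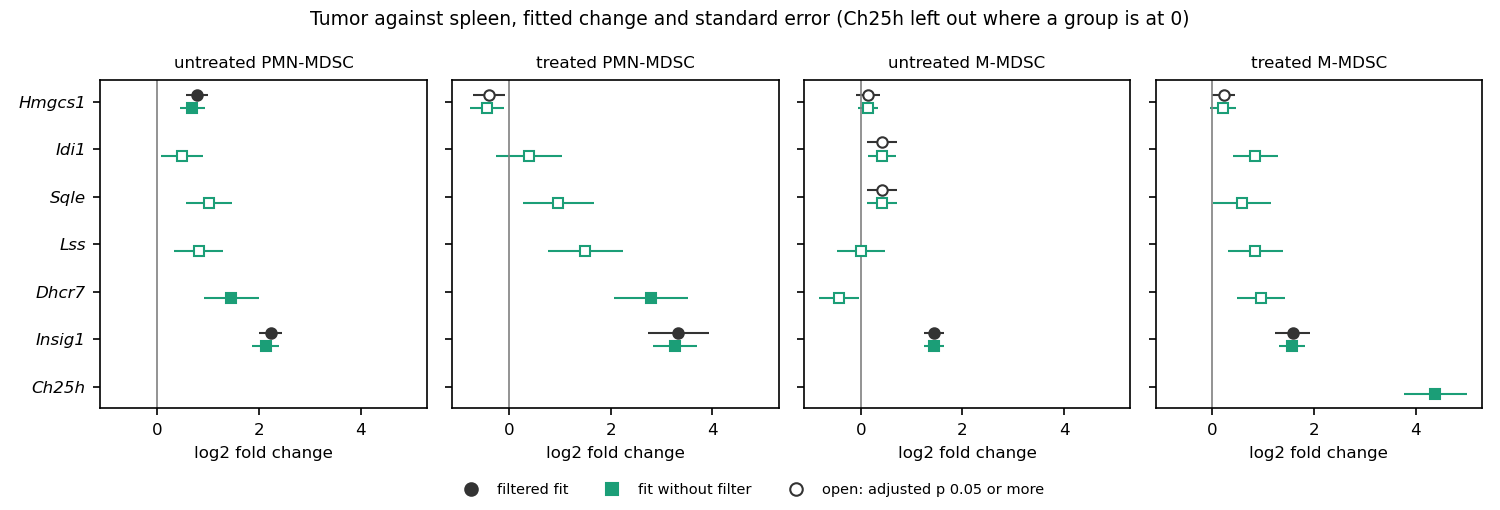
Fitted log2 fold change with its SE (x axis) of each gene (y axis) in tumor against spleen, 1 panel per cell type and treatment, with circles for the fit with and squares for the fit without the filter on low counts; filled symbols have an adjusted p under 0.05 and Ch25h is left out where a group is at 0. Insig1 is filled in all 4 panels at 1.44 to 3.33, and Ch25h in treated M-MDSC lies at 4.38.

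Between the cell types, the members called in the spleen were higher in M-MDSC than in PMN-MDSC, at shares near those of all genes with the filter. In untreated spleen, Insig1 was higher by 1.37 ± 0.23 (adjusted p = 0.000622), Sqle by 1.51 ± 0.44 (0.0131) and Hmgcs1 by 0.81 ± 0.26 (0.0195), and the call of Hmgcs1 was lost without untreated spleen M-MDSC library 1 (0.60, 0.052) or PMN-MDSC library 4 (0.74, 0.0504). These were 3 of the 4 that passed, where 64.4% of all genes were called. Without the filter 5 of 6 were called (26.4% of all genes), with Dhcr7 (1.84 ± 0.43, adjusted p = 0.000174) and Idi1 (1.24, 0.00066) in addition. With the filter Idi1 was at 1.25 ± 0.53 (adjusted p = 0.0594) and passed with DESeq2 (0.0251), with upper-quartile scaling (0.028) and without untreated spleen PMN-MDSC library 1 (1.98, adjusted p = 0.00406), whose 13.8 CPM stands above 0.719, 4.83 and 6.13 CPM in the other libraries. Other enzymes of the pathway lay the other way, such as Lbr, at 517 to 973 CPM in PMN-MDSC and 121 to 146 CPM in M-MDSC, and Sc5d, at 66.0 to 124 and 12.2 to 19.7 CPM, both named here after their values were seen.

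In treated spleen 1 of 2 that passed was called higher, where 61.2% of all genes were called. It was Insig1 (2.43 ± 0.63, adjusted p = 0.01), and Dhcr7 was added without the filter (1.999 ± 0.773, 0.0415), which made 2 of 7 (27.7% called). The call of Dhcr7 was lost without any 1 of 6 of the 7 libraries (1.75 to 2.25, adjusted p of 0.0611 to 0.143). Hmgcs1 was at −0.08 there (adjusted p = 0.784), and by CPM of the library total, without TMM scaling, the order of its means turned to 37.5 CPM in M-MDSC against 27.3 CPM in PMN-MDSC, from 33.1 against 38.9 CPM.

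In the tumor the comparison is one of libraries labelled M-MDSC and PMN-MDSC, since markers went against the PMN-MDSC label in untreated tumor. In treated tumor, M-MDSC library 2 held 2.72 CPM of the M-MDSC marker Ly6c2. The untreated tumor PMN-MDSC libraries held 10377 to 13332 CPM of macrophage markers, more than the 3428 to 8041 CPM of untreated tumor M-MDSC, beside 1340 to 4129 CPM of PMN-MDSC markers and 0 to 8.98 CPM of Ly6g. In untreated tumor edgeR called 0 of the 3 members that passed, with 2 at an unadjusted p under 0.05 and 1 called by DESeq2, where 13% of all genes were called. The values were 0.53 for Insig1 (adjusted p = 0.0882), 1.05 ± 0.34 for Idi1 (0.059 in edgeR, 0.0385 in DESeq2) and 0.12 for Hmgcs1. Idi1 and Insig1 passed without untreated tumor M-MDSC library 4 (1.16, adjusted p = 0.0291, and 0.62, 0.03), and without the filter 1 of 7 was called (Idi1, 1.12, 0.0232), where 6.07% of all genes were called. In treated tumor edgeR called 0 of 4 with 0 at an unadjusted p under 0.05 and 0 by DESeq2 (0.369% called), and without the filter 0 of 7 with 2 at an unadjusted p under 0.05 (2.22% called). Ch25h was at nearly the same mean in the treated cell types, 10.4 ± 4.9 CPM (n = 3) in M-MDSC and 10.5 ± 8.5 CPM (n = 4) in PMN-MDSC, a log2 difference of −0.06 that leaving out single libraries moved between −0.52 and 0.45.

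Bulk tumor, which holds tumor cells, stroma and immune cells together, was highest in Hmgcs1, Idi1, Sqle and Lss by its mean. In a bulk sample fewer cells of a type and less RNA per cell cannot be told apart. Its epithelial markers summed to 4418 to 6523 CPM, against 123 to 740 CPM in untreated tumor PMN-MDSC and 101 to 323 CPM in untreated tumor M-MDSC. Sqle was at 49.0, 38.2, 25.5 and 23.1 CPM in the 4 bulk tumors. All of these were above all tumor MDSC libraries, and Sqle was higher than in PMN-MDSC by 1.68 ± 0.34 (adjusted p = 0.00093) and than in M-MDSC by 0.93 ± 0.34 (0.0301). Insig1, at 34.7, 22.5, 20.5 and 21.4 CPM, was lower in bulk tumor, with a log2 fold change of −1.16 ± 0.20 against PMN-MDSC (adjusted p = 0.000329) and −1.65 ± 0.23 against M-MDSC (6.42e-05). Idi1 was higher than in PMN-MDSC (0.92 ± 0.33, adjusted p = 0.0253) and did not pass against M-MDSC (−0.10).

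Against PMN-MDSC 6 members passed the filter, 2 were called higher and 1 lower (69.7% of all genes called), and without the filter 2 and 2 of 7 (36.4% called), with Ch25h lower in bulk tumor (−2.56 ± 0.68, adjusted p = 0.000647). Against M-MDSC 5 passed, 1 was higher and 1 lower (69.2% called), and without the filter 1 and 1 of 7 (38.4% called). Most genes differed between bulk tumor and sorted cells, and the calls of the members have to be read beside that. Idi1 against PMN-MDSC no longer passed without untreated tumor PMN-MDSC library 1 (0.91, adjusted p = 0.0522), 3 (0.85, 0.0737) or 4 (0.70, 0.0984) or bulk tumor library 1 (0.65, 0.0786). Sqle against M-MDSC no longer passed without untreated tumor M-MDSC library 3 (0.87, adjusted p = 0.066) or 4 (0.72, 0.0681) or bulk tumor library 1 (0.72, 0.0902) or 2 (0.89, 0.0575). Lss was at 11.1 ± 1.8 CPM in bulk tumor and higher than in M-MDSC by 0.72 (adjusted p = 0.0524), which passed with DESeq2 (0.0172).

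Over the 9 group means of log2(CPM + 1), Sqle was most like Idi1 (Pearson's r = 0.946) and Dhcr7 most like Insig1 (r = 0.900), while Ch25h and Hmgcs1 gave r = −0.289. Among 9790 genes the 5 whose group means were most like those of Ch25h were Slamf9 (r = 0.965), Htra4 (0.964), B3galnt1 (0.959), Cd72 (0.945) and Mapk1ip1l (0.940). For the mean of the 6 sterol genes they were Dlg4 (0.992), Tpp2 (0.982), Slc4a7 (0.974), Rnf217 (0.971) and Zfp629 (0.971). These 9 points share mice and library composition, and r is given as a description.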

How the data were processed

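The data are RNA-seq libraries of sorted MDSC and bulk tumor, made from total RNA with a stranded kit. The authors deposited a table of raw fragment counts, not normalized, each library being a column. Per the methods, reads were mapped to mm10 (GRCm38) with ContextMap and BWA and counted by strand with featureCounts (Subread 1.4.6-p3, per the submitters' processing notes) on Gencode v16. Column names gave the cell type, compartment and treatment of each library, and 0 columns were left unused apart from 1 library under the minimum of 1000 counts. Of 53379 identifiers, 53274 matched GENCODE M21, which gave symbols, positions and exon lengths. None of 48 pairs of libraries within groups was identical, and the lowest chi-square per degree of freedom was 7.14.

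Levels are CPM and FPKM computed from the deposited counts with TMM factors over 34 libraries. Comparisons used edgeR 4.0.16 (limma 3.58.1, R 4.3.3), each on its own groups, with robust quasi-likelihood F-tests (two-sided), for genes averaging 25 counts or more, and Benjamini-Hochberg adjustment over all of them. p-values measure the spread between the libraries of a group. The fit was tested on simulated data. Alternatives were DESeq2 1.42.0, RLE and upper-quartile scaling, no filter, the study's threshold (adjusted p under 0.001 and 2-fold), a fit over 4 groups, each library left out and, added after seeing the data, no filter with each library left out. The 7 members and the gene lists were chosen with earlier results of these data known. The genes named are the members, up to 3 genes called higher and 3 called lower per list and comparison with the smallest adjusted p, and the 5 most like Ch25h or the sterol genes. Beyond these, genes were named after their values were seen where a count of calls without the filter or by DESeq2 was 5 or fewer. So were Gpr183, the single markers, the uncalled enzymes that act on squalene or later, and Lbr and Sc5d between the cell types. Some genes of the sterol lists are not reported here.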

Additional observations from a re-analysis of the deposited data

Results flagged for a closer look

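Of 47 groups of 4 values, 2 held a library far from the others by Dixon's test (critical value 0.829), and chance gives about 1 in 20 such groups. Insig1 in bulk tumor library 1 was at 34.7 CPM, beside 20.5 to 22.5 CPM in the other 3 libraries. Ch25h in untreated tumor M-MDSC library 3 was at 1.83 CPM, beside 0 in the other 3 libraries.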

How the results depend on the processing

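Of 838 alternative log2 fold changes, 740 kept their direction and side of the threshold. Of 260 alternative counts of members called, 225 stayed within 1.5 times the count reported, and of 301 alternative mean CPM values 295 moved by less than 1 SD. No paired analysis was possible because the columns carry running numbers and not the numbers of the mice.

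Without the filter, the number of members called became 1 in tumor PMN-MDSC, 2 in spleen M-MDSC and 2 in tumor M-MDSC for treatment, 4, 2, 3 and 2 for tumor against spleen in untreated PMN-MDSC, untreated M-MDSC, treated PMN-MDSC and treated M-MDSC, and 5, 1 and 2 for the cell types in untreated spleen, untreated tumor and treated spleen. With the study's threshold it became 0 for treatment in spleen M-MDSC, 1, 0 and 0 for tumor against spleen in untreated PMN-MDSC, treated PMN-MDSC and treated M-MDSC, 1 and 0 for the cell types in untreated and treated spleen and 1 for bulk tumor against M-MDSC. With DESeq2 it became 1 for the cell types in untreated tumor and 1 for the treatment effect in tumor minus spleen PMN-MDSC. With single libraries left out, the lowest and highest counts were 1 and 2 for treatment in spleen M-MDSC (1 with all libraries), 0 and 1 for tumor against spleen in treated M-MDSC (1), 1 and 3 for the cell types in untreated spleen (3), 0 and 2 for those in untreated tumor (0), 2 and 3 for bulk tumor against PMN-MDSC (3), 1 and 3 for bulk tumor against M-MDSC (2), and 0 and 1 for the treatment effect in M-MDSC minus PMN-MDSC of spleen (0).

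Directions turned only in values that were not called. These were, with upper-quartile scaling, Hmgcs1 in tumor against spleen of untreated M-MDSC (−0.00817), Hmgcs1 between the cell types of treated spleen (0.25), Ch25h between those of treated tumor (0.00208) and Idi1 in bulk tumor against M-MDSC (0.10, also 0.0811 without the filter and 0.00786 with DESeq2). With single libraries left out, the ranges were −0.72 to 0.12 for Insig1 after treatment in tumor M-MDSC, −0.0363 to 0.34 and −0.0254 to 0.39 for Hmgcs1 in tumor against spleen of untreated and treated M-MDSC, −0.0555 to 0.23 and −0.31 to 0.00612 for Hmgcs1 between the cell types of untreated tumor and treated spleen, −0.16 to 0.22 for Dhcr7 and −0.52 to 0.45 for Ch25h between those of treated tumor, −0.38 to 0.17 for Idi1 in bulk tumor against M-MDSC, −0.13 to 0.27 for Hmgcs1 and −0.34 to 0.46 for Insig1 in the effect in tumor minus spleen of M-MDSC, and −0.38 to 0.32 for Idi1 and −0.41 to 0.38 for Insig1 in that of M-MDSC minus PMN-MDSC of tumor. The cause was not tested.

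Upper-quartile scaling moved the median of all genes by −0.175 to 0.334 (log2), by over 0.1 in 9 of 18 comparisons. Depth limits Ch25h, Lss and Dhcr7 most, which held 312 to 756 counts in all, and calls without the filter rest on few counts.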
